A study of Mus musculus with 20 samples.

Results

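Livers lacking Cpt2 were compared directly with livers lacking both Cpt1a and Cpt1b across all genes. The 8 libraries used are those the labels assign to these genotypes, 4 per group, out of 20 in the series. Cpt2KO livers carried a liver-specific knockout of Cpt2, Cpt1DKO livers a liver-specific double knockout of Cpt1a and Cpt1b, and Control livers triple-floxed alleles of Cpt1a, Cpt1b and Cpt2. The other 8 libraries came from liver-specific triple knockouts of these genes and from double knockouts of Ppara and Cpt2, and they entered the fit that estimated the spread. Every mouse had been fasted for 24 h, total RNA was taken from frozen liver, and the stated purpose was to separate the transcriptional contribution of Cpt1 from that of Cpt2. The labels give neither the Cre driver, nor age or sex, nor the deleted exons, and they do not state that each library came from its own animal, so the p-values measure the spread between these libraries.

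Carnitine palmitoyltransferase 1 sits in the outer mitochondrial membrane, where it joins long-chain fatty acyl groups to carnitine. Cpt1a is the liver form and Cpt1b the muscle form. Carnitine palmitoyltransferase 2 lies in the inner membrane and returns the acyl group to coenzyme A inside the matrix, so that loss of either enzyme blocks long-chain fatty acid oxidation at a different side of the same shuttle. In a fasted liver this pathway supplies acetyl-CoA for ketone bodies and energy for glucose production, and the nuclear receptor PPARα, which fatty acids activate, raises the genes that carry it out.

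Total counts ran from 14710304 to 19428598 in Cpt2KO and from 14129595 to 18998588 in Cpt1DKO. Levels are given as CPM, counts per library size after scaling by trimmed mean of M-values. Albumin took 2.36 to 4.68% of counts in Cpt2KO and 4.3 to 4.85% in Cpt1DKO. Spearman correlations of log CPM across genes were 0.968 to 0.979 within Cpt2KO, 0.971 to 0.986 within Cpt1DKO and 0.951 to 0.973 between the groups, as a description of genes that are not independent of one another. Cpt2KO replicate 3 stood apart in its sex markers, among other differences. It had 981 CPM of Xist, the RNA of the inactive X chromosome, and at most 1 count of each of the Y-linked genes Ddx3y, Eif2s3y, Kdm5d and Uty. The other 7 libraries had at most 0.945 CPM of Xist. Replicate 3 was the only library of the 8 with this female pattern, which 1 Cpt2PparaDKO library shared. Its albumin share, 4.68%, was the highest of its group and lay within the Cpt1DKO range. The part of replicate 3 in each result is covered by fits that left it out.

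Cpt1a followed the labels in every library. Cpt2 did so in all but 1, judged only by Cpt2KO against Cpt1DKO and not against Control. Cpt1b could not be judged against Control. Cpt1a (chromosome 19, 3372334 to 3435733, plus strand, GRCm39) had 1452, 1276, 1619 and 1188 CPM in the Cpt2KO libraries, against 153, 146, 173 and 148 CPM in the Cpt1DKO libraries. All Cpt2KO libraries stood far above all Cpt1DKO libraries, with a log2 fold change 3.16 (SE 0.19, adjusted p = 2.44e-09), an 8.93-fold difference. The Control mean was 1038 ± 76.6 CPM (SD, n = 4). Cpt1b (chromosome 15, 89300608 to 89310066, minus strand) was scarce, at 3.78, 5.28, 5.1 and 1.5 CPM in the Cpt2KO libraries, against 0.993, 1.11, 0.798 and 0.62 CPM in the Cpt1DKO libraries, and gave a log2 fold change 2.15 (SE 0.36, adjusted p = 0.000575). Control livers held 0.543 ± 0.215 CPM of Cpt1b, close to the Cpt1DKO values, so Cpt1b was hardly present in Control either.

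Cpt2 (chromosome 4, 107761178 to 107780807, minus strand) had 116, 165, 114 and 130.5 CPM in the Cpt2KO libraries, against 284, 147, 298 and 302 CPM in the Cpt1DKO libraries. It was lower in Cpt2KO, with a log2 fold change -0.97 (SE 0.18, adjusted p = 0.00147), although Cpt1DKO replicate 2 fell inside the Cpt2KO range while its Cpt1a level matched the other Cpt1DKO libraries. Counts per gene do not show which exons the remaining reads cover, and the labels do not give the deleted ones. Ppara itself, at 267 ± 84.3 CPM in Cpt2KO and 238 ± 64.3 CPM in Cpt1DKO (SD, n = 4 each), gave 0.16 ± 0.24 (log2 fold change ± SE, adjusted p = 0.696) with overlapping groups.

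**Figure D1:**
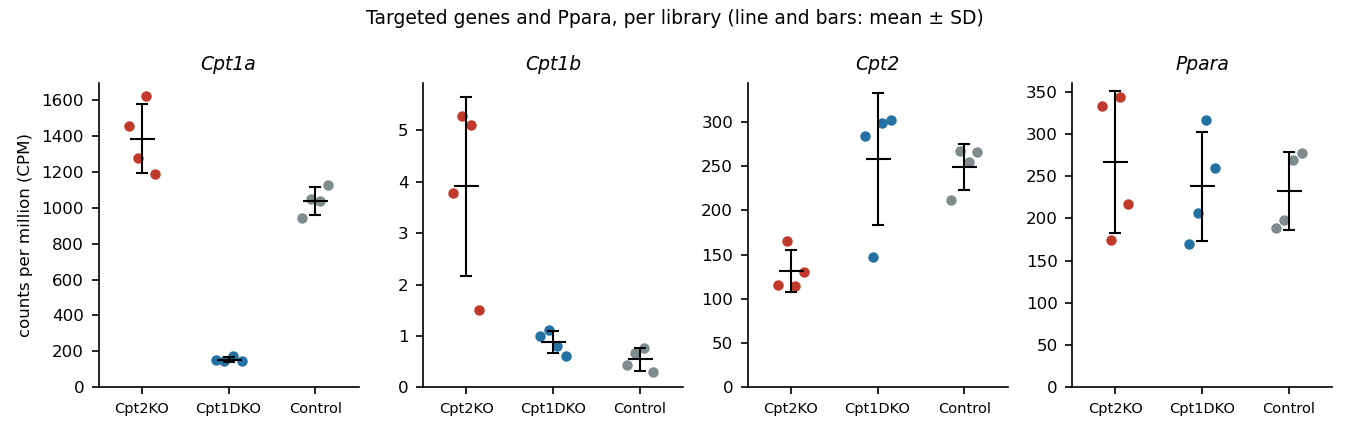
Levels of Cpt1a, Cpt1b, Cpt2 and Ppara in CPM on linear axes, 1 point per library for Cpt2KO, Cpt1DKO and Control (4 each), with the mean and SD in black. Cpt1a separates the genotypes, at 1188 to 1619 CPM in Cpt2KO and 146 to 173 CPM in Cpt1DKO.

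Cpt2KO and Cpt1DKO livers differed in 2212 of 15669 tested genes, 14.1%, at an adjusted p under 0.05 (edgeR's quasi-likelihood test, Benjamini-Hochberg adjustment). Of these, 1161 were higher in Cpt2KO (7.41%) and 1051 lower (6.71%), and the median log2 fold change over all tested genes was -0.002. More of the falls were large: 433 lower genes and 312 higher genes passed 2-fold, and 126 lower and 79 higher genes passed 4-fold. All 4 Cpt2KO libraries lay above all 4 Cpt1DKO libraries in 1264 genes (8.07%) and below them in 1228 (7.84%). Set against Control, which both comparisons share, Cpt2KO differed in 5228 genes (33.4%) and Cpt1DKO in 869 (5.55%). The count rested on individual libraries: it was 1192 without Cpt2KO replicate 2, 1435 without Cpt1DKO replicate 1, 1337 without Cpt1DKO replicate 4 and 1344 when only the 8 libraries were fitted. In all 8 fits that left out 1 library 960 genes stayed called, 515 higher and 445 lower. Of the genes described below with their error and adjusted p, Akr1d1, Car5a, Ctsd, Cyp2a4, Cyp2b10, Gdf15, Hmox1, Insr, Keg1, Mcoln1, Nr0b2, Otc, Plin4, Saa1, Saa2, Slc1a2, Trp53inp1 and Tubb2a were not called when only the 8 libraries were fitted. Of those described by a log2 fold change alone, Afg3l2, Atf4, Atp6v0d2, Cidec, Clpx, Gldc, Hsd17b13, Itgax, Lamp2, Lgr5, Pnpla2, Ppp1r3c, Rrm1, Slc13a3, Slc16a1, Tat and Tnfrsf10b were not called then either. These also lost their call in at least 1 of the fits that left out a library, as did Acot4, Cs, Cyp27a1, Mcm2, Me1, Mogat1, Mthfd2, Phyh, Slc27a5, Thrsp and Vldlr (highest adjusted p from 0.0533 for Vldlr to 0.175 for Atf4). The authors' deposited table of this contrast, which runs as Cpt1DKO over Cpt2KO, called 2008 genes, 1041 of them higher in Cpt2KO and 967 lower. Of these, 1698 were also called here, 84.6% of the authors' genes and 76.8% of the 2212, and every one of the 1698 had the same direction.

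The genes with the largest rises included some of fatty acid and fuel handling. Fabp3 (chromosome 4, 130202388 to 130209256, plus strand), the heart form of the cytosolic fatty acid binding proteins, had 26.3, 13, 28.2 and 13.6 CPM in the Cpt2KO libraries, against 0.132, 0.327, 0.0798 and 0.394 CPM in the Cpt1DKO libraries. It was close to silent in Cpt1DKO, where the 4 libraries held 15 reads in all against 1388 in Cpt2KO, and its log2 fold change 6.33 (SE 0.74, adjusted p = 6.03e-05) therefore depended on few Cpt1DKO reads. Pdk4 (chromosome 6, 5483351 to 5496309, minus strand), the kinase that switches off pyruvate dehydrogenase during fasting, had 848, 729, 969.9 and 531 CPM in the Cpt2KO libraries, against 88.7, 119, 30.5 and 36.3 CPM in the Cpt1DKO libraries. No Cpt1DKO library came near the lowest Cpt2KO value, and the log2 fold change 3.49 (SE 0.48, adjusted p = 0.000243) was an 11.2-fold difference. Elovl7, a long-chain fatty acid elongase, averaged 33.7 ± 5.12 CPM in Cpt2KO and 3.59 ± 3.59 CPM in Cpt1DKO (SD, n = 4 each), a log2 fold change 3.22 (SE 0.69, adjusted p = 0.00638). The Control means were lower still, at 8.47 ± 3.32 CPM for Pdk4 and 0.414 ± 0.312 CPM for Elovl7.

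The remaining genes that led the rises had mixed roles. Nupr1, a small stress-induced nuclear protein, had 15.8, 31.3, 3.91 and 35.8 CPM in the Cpt2KO libraries, against 0.53, 0.719, 0.479 and 0.902 CPM in the Cpt1DKO libraries, and its lowest Cpt2KO value, in replicate 3, was still above every Cpt1DKO value (log2 fold change 5 (SE 0.79, adjusted p = 0.000725)). Gpnmb, a glycoprotein of lysosome-rich macrophages, had 57, 38.8, 27.6 and 28.4 CPM in the Cpt2KO libraries, against 2.19, 2.29, 0.798 and 1.47 CPM in the Cpt1DKO libraries, with no overlap. Gpnmb gave 4.47 ± 0.38 (log2 fold change ± SE, adjusted p = 1.17e-06). Endod1, an endonuclease-domain protein, averaged 45 ± 8.94 CPM in Cpt2KO and 2.91 ± 0.152 CPM in Cpt1DKO (SD, n = 4 each), 3.95 ± 0.25 (log2 fold change ± SE, adjusted p = 2.44e-09). Cbr3, a carbonyl reductase, gave 3.54 ± 0.59 (log2 fold change ± SE, adjusted p = 0.000835), and Sema3b, a secreted semaphorin, 2.77 ± 0.28 (log2 fold change ± SE, adjusted p = 8.62e-06). Psat1, an enzyme of serine synthesis, gave 2.77 ± 0.63 (log2 fold change ± SE, adjusted p = 0.0084). H2-Q1, a class I histocompatibility gene with near-identical relatives whose reads could be split between copies, gave 2.74 ± 0.66 (log2 fold change ± SE, adjusted p = 0.012). Orm2, an acute phase protein of a small family, gave 3.1 ± 0.54 (log2 fold change ± SE, adjusted p = 0.00147). Cyp2a4, a steroid hydroxylase nearly identical to its neighbour Cyp2a5, had 3.17, 28.6, 145 and 0.692 CPM in the Cpt2KO libraries, against 0.331, 0.392, 0.639 and 0.225 CPM in the Cpt1DKO libraries. Most of its signal lay in the library with the female pattern, and its call (log2 fold change 6.84 (SE 2.09, adjusted p = 0.0404)) was lost when Cpt2KO replicate 2 or 3, or Cpt1DKO replicate 1, 2, 3 or 4 was left out (highest adjusted p = 0.116).

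The genes with the largest falls included several hepatocyte enzymes. Cyp7a1 (chromosome 4, 6265612 to 6275633, minus strand), the enzyme that starts bile acid synthesis and sets its rate, had 13.1, 5.59, 23.2 and 18 CPM in the Cpt2KO libraries, against 194, 134, 111 and 155 CPM in the Cpt1DKO libraries, so that the groups were far apart (log2 fold change -3.31 (SE 0.45, adjusted p = 0.000241)). Bhmt (chromosome 13, 93753183 to 93774469, minus strand), which remakes methionine from homocysteine with betaine, had 381, 700.4, 1357 and 934 CPM in the Cpt2KO libraries, against 6407, 4918, 7552 and 6667 CPM in the Cpt1DKO libraries. The highest Cpt2KO library held less than the lowest Cpt1DKO library, and the difference (log2 fold change -2.92 (SE 0.36, adjusted p = 5.93e-05)) came at an abundant transcript. Car5a, the mitochondrial carbonic anhydrase that supplies bicarbonate to urea synthesis, had 5.4, 0.959, 0.597 and 1.33 CPM in the Cpt2KO libraries, against 12.3, 7.39, 40.3 and 30.7 CPM in the Cpt1DKO libraries. Car5a gave -3.5 ± 0.67 (log2 fold change ± SE, adjusted p = 0.00284). Among the other leading falls, Camk1d, a calcium-dependent kinase, gave -2.38 ± 0.3 (log2 fold change ± SE, adjusted p = 8.55e-05), Tbc1d30, a Rab GTPase-activating protein, -2.35 ± 0.36 (log2 fold change ± SE, adjusted p = 0.000383), and Serpind1, the heparin cofactor of plasma, -2.45 ± 0.42 (log2 fold change ± SE, adjusted p = 0.00125). Keg1, related to glycine acyltransferases, gave -2.4 ± 0.72 (log2 fold change ± SE, adjusted p = 0.0367), a call lost when Cpt2KO replicate 2, 3 or 4, or Cpt1DKO replicate 1, 3 or 4 was left out (highest adjusted p = 0.109). For these falls the Control means mostly lay at or above those of Cpt1DKO, as with Cyp7a1 at 179 ± 17.4 CPM and Bhmt at 7259 ± 1154 CPM, whereas Tbc1d30 averaged 6.2 CPM in Cpt2KO, 31.4 CPM in Cpt1DKO and 14.6 ± 3.5 CPM in Control.

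**Figure D2:**
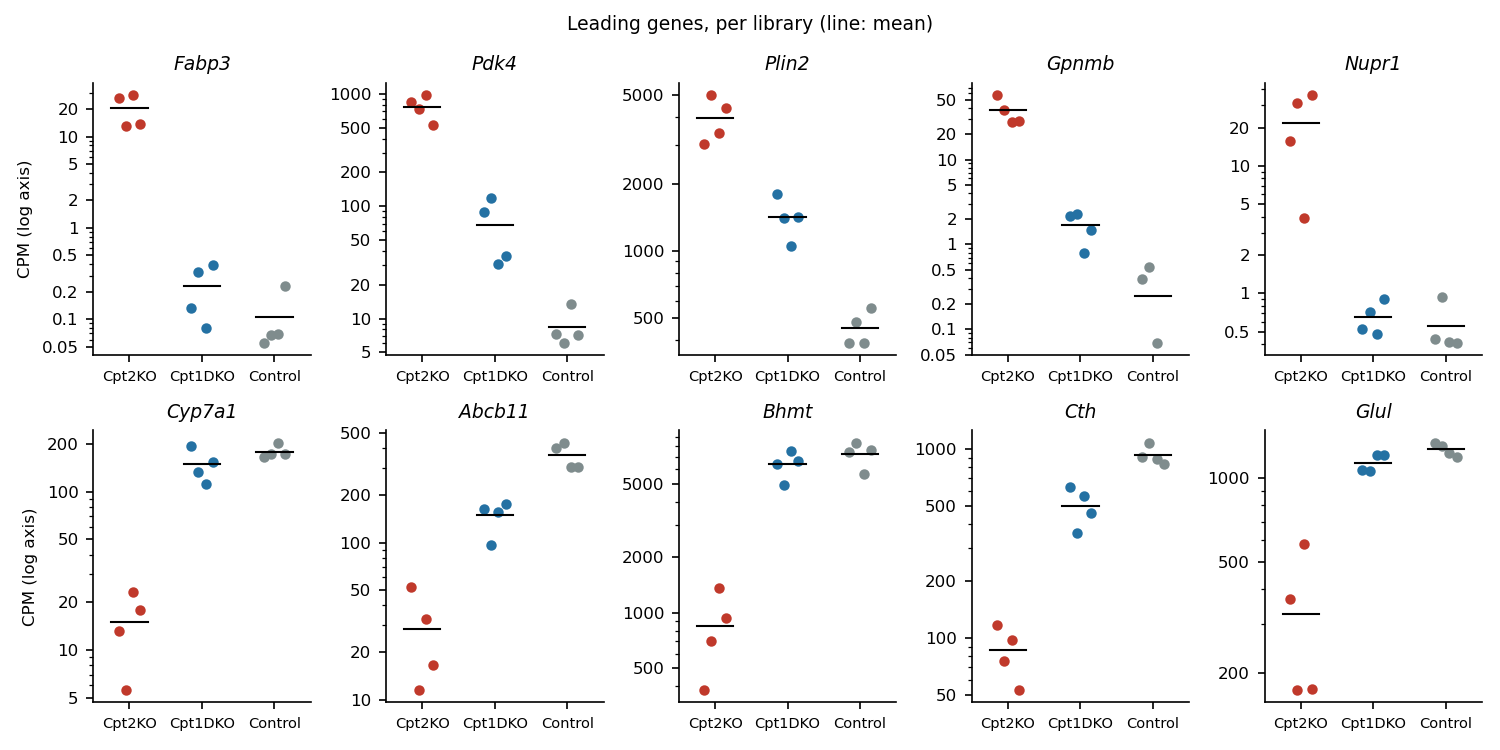
Levels in CPM on log axes of 5 genes higher in Cpt2KO (top row) and 5 lower (bottom row), 1 point per library for Cpt2KO, Cpt1DKO and Control, with the mean as a line. Cpt2KO and Cpt1DKO do not overlap in any panel, and the Control library with 0 CPM of Gpnmb cannot be drawn on a log axis.

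Canonical PPARα targets were mostly higher in Cpt2KO where they differed. Of 40 tested targets 19 rose and 1 fell, with a median log2 fold change of 0.55, beside 7.41% and 6.71% of all tested genes and a median of 0. Cpt1b, itself targeted in Cpt1DKO, is 1 of the risers. Leaving out each library gave 17 to 20 called targets. Behind Fabp3 and Pdk4 came Ucp3, an uncoupling protein typical of muscle, at 4.99, 2.72, 6.03 and 3.29 CPM in the Cpt2KO libraries, against 0.397, 0.392, 1.04 and 0.62 CPM in the Cpt1DKO libraries. Ucp3 gave 2.81 ± 0.46 (log2 fold change ± SE, adjusted p = 0.000432). Acot2, a thioesterase that frees fatty acids from coenzyme A in mitochondria, had 300.5, 551, 367 and 208 CPM in the Cpt2KO libraries, against 59.2, 50.1, 51.9 and 60.5 CPM in the Cpt1DKO libraries. Acot2 gave 2.69 ± 0.36 (log2 fold change ± SE, adjusted p = 0.000179). Its cytosolic neighbour Acot1 had 1242, 2004, 1692 and 1036 CPM in the Cpt2KO libraries, against 597, 434, 518 and 435 CPM in the Cpt1DKO libraries. Acot1 gave 1.59 ± 0.2 (log2 fold change ± SE, adjusted p = 6.03e-05). Neither gene overlapped between the groups, though the 2 sequences are so alike that reads could have been shared between them. The target list did not move as a block: 20 members were not called, among them Cyp4a14 (-0.03), Cyp4a10 (-0.15), Acsl1 (0), Vnn1 (-0.01) and Angptl4 (-0.18), all given as log2 fold changes.

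Lipid droplet genes rose without exception among those called. Of 24 tested members 10 rose and 0 fell, with a median log2 fold change of 0.47. That count was 6 without Cpt2KO replicate 2. Plin2 (chromosome 4, 86566623 to 86588297, minus strand), the main coat protein of hepatocyte lipid droplets, had 3003, 4982, 3366 and 4382 CPM in the Cpt2KO libraries, against 1806, 1415, 1050.4 and 1427 CPM in the Cpt1DKO libraries, and even the lowest Cpt2KO library exceeded the highest Cpt1DKO one (log2 fold change 1.47 (SE 0.22, adjusted p = 0.000257)). Plin4, a coat protein abundant in fat tissue, averaged 593 ± 412 CPM in Cpt2KO and 115 ± 76.3 CPM in Cpt1DKO (SD, n = 4 each) (log2 fold change 2.37 (SE 0.49, adjusted p = 0.00487)), and Hilpda, an inhibitor of droplet lipolysis, 19.7 ± 7.75 CPM in Cpt2KO and 7.42 ± 2.47 CPM in Cpt1DKO (log2 fold change 1.4 (SE 0.27, adjusted p = 0.00152)). The other risers were Mogat1, Plin3, Plin5, Cidec, Hsd17b13, Dgat1 and Pnpla2, at log2 fold changes from 0.58 (Pnpla2, the main triglyceride lipase) to 1.07 (Mogat1, an acyltransferase of triglyceride synthesis).

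Acyl-CoA thioesterases and synthetases were called in both directions. Of 24 tested members 6 rose and 4 fell (median 0.29). The risers were thioesterases apart from the fatty acid transport protein gene Slc27a4 (1.19): after Acot2 and Acot1 came Acot9 at 1.44 ± 0.28 (log2 fold change ± SE, adjusted p = 0.00195), Acot4 at 1.23 and Acot13 at 1 (log2). The fallers were Acsm1, a medium-chain acyl-CoA synthetase (log2 fold change -1.17 (SE 0.28, adjusted p = 0.0109)), Baat, which joins bile acids to amino acids (log2 fold change -0.96 (SE 0.19, adjusted p = 0.00178)), Acss2 (-0.74) and Slc27a5 (-0.62).

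Peroxisomal genes were likewise divided. Of 29 tested, 8 rose and 3 fell (median 0.19). Ehhadh, the bifunctional enzyme of peroxisomal β-oxidation and among the most abundant genes called, had 13216, 11695, 9884 and 10315 CPM in the Cpt2KO libraries, against 5997, 3694, 4745 and 5772 CPM in the Cpt1DKO libraries, with no overlap. Ehhadh gave 1.16 ± 0.22 (log2 fold change ± SE, adjusted p = 0.00145). Acaa1b, a peroxisomal thiolase that may share reads with its close copy Acaa1a, averaged 7848 ± 1470.0 CPM in Cpt2KO and 2791 ± 849 CPM in Cpt1DKO (SD, n = 4 each) (log2 fold change 1.49 (SE 0.35, adjusted p = 0.0077)), and Pex11a, a peroxisome division factor, 865 ± 84.6 CPM in Cpt2KO and 362 ± 31.4 CPM in Cpt1DKO (log2 fold change 1.26 (SE 0.16, adjusted p = 6.44e-05)). Acox2, the oxidase for bile acid side chains and branched chains, fell (136 ± 32 CPM in Cpt2KO and 267 ± 33.1 CPM in Cpt1DKO, log2 fold change -0.98 (SE 0.15, adjusted p = 0.000291)), as did Pecr, a trans-2-enoyl-CoA reductase (log2 fold change -1.34 (SE 0.19, adjusted p = 0.000173)), and Phyh (-0.71), the first enzyme of phytanic acid breakdown.

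**Figure D3:**
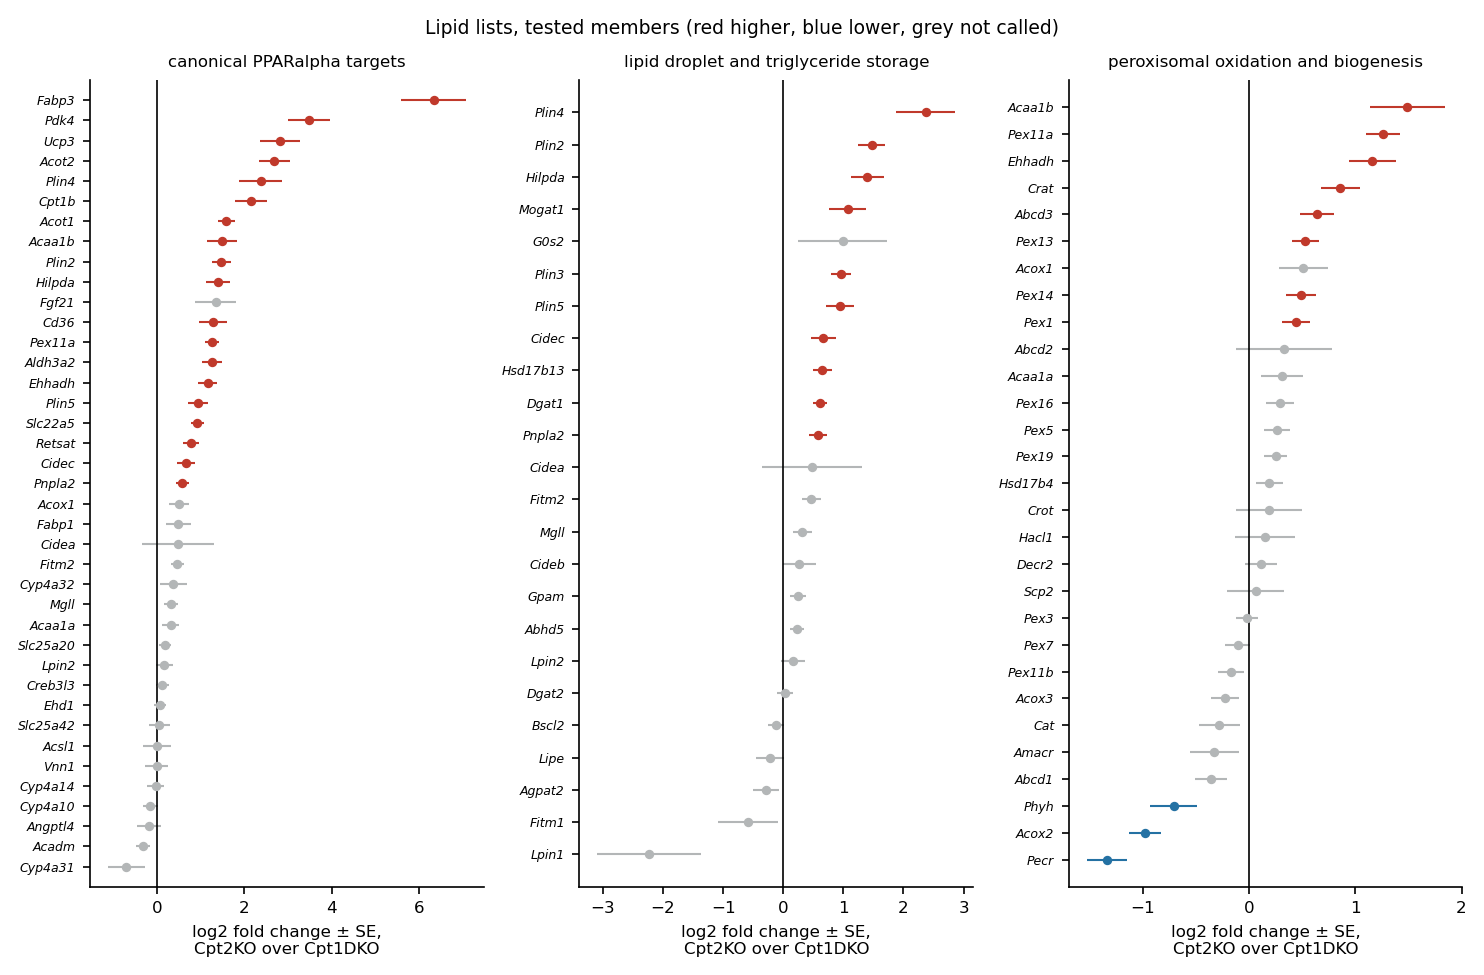
Log2 fold change with its SE, Cpt2KO over Cpt1DKO, for tested members of the PPARα target, lipid droplet and peroxisome lists, coloured by call. Red members extend to 6.33 (Fabp3), and the blue members are Phyh, Acox2 and Pecr.

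A minority of the other carnitine and oxidation genes differed, mostly by less than 2-fold. Among 12 tested carnitine genes 3 rose and 0 fell (median 0.19); Cpt1a, Cpt1b and Cpt2 were left out of this list as targeted genes. Slc22a5, the carnitine importer, had 261 ± 43.2 CPM in Cpt2KO and 138 ± 12.1 CPM in Cpt1DKO (SD, n = 4 each) (log2 fold change 0.92 (SE 0.15, adjusted p = 0.000419)), Crat, the acyltransferase for short acyl groups, 362 ± 75.1 CPM in Cpt2KO and 200.0 ± 25.4 CPM in Cpt1DKO (log2 fold change 0.86 (SE 0.18, adjusted p = 0.00415)), and Acacb, which makes the malonyl-CoA that inhibits Cpt1, 268 ± 45.5 CPM in Cpt2KO and 149 ± 28 CPM in Cpt1DKO (log2 fold change 0.84 (SE 0.19, adjusted p = 0.00497)). The carnitine count was 5 without both female libraries. The share called was 25% in this list and in mitochondrial β-oxidation, beside 14.1% of all genes. Of 20 mitochondrial β-oxidation genes 2 rose and 3 fell (median 0.16), with Acadsb (-0.87, adjusted p = 0.00309) the most changed. That count was 1 without Cpt1DKO replicate 4 and 2 without Cpt2KO replicate 2 or 3 or Cpt1DKO replicate 1 or 2. Microsomal ω-oxidation gave 1 riser, Aldh3a2 (1.26), and 2 fallers of 14, a share called of 21.4% beside the same 14.1%. That count was 1 without Cpt2KO replicate 2, 3 or 4 or Cpt1DKO replicate 1, 3 or 4. Ketogenesis and ketone export gave 1 riser, the monocarboxylate carrier Slc16a1 (0.53), and 1 faller among 9, a share called of 22.2%. That count was 0 to 1 when libraries were left out in turn.

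Pyruvate and citrate entry shifted at a few genes. Of 32 genes of the tricarboxylic acid cycle and pyruvate use, 4 rose and 0 fell (median 0), a share near that of all genes. Besides Pdk4 these included Mpc1, a subunit of the mitochondrial pyruvate carrier (82.4 ± 19.3 CPM in Cpt2KO and 46.6 ± 3.38 CPM in Cpt1DKO (SD, n = 4 each), log2 fold change 0.82 (SE 0.16, adjusted p = 0.00206)) and the citrate synthase gene Cs (0.77). That count was 2 without Cpt2KO replicate 2 or 3 or Cpt1DKO replicate 4. Nuclear-encoded respiratory chain genes numbered 1 riser and 0 fallers of 34 (median 0.14), a call lost in every fit that left out 1 library except that without Cpt2KO replicate 1. That count was 3 without both female libraries. Of 13 transcripts of mitochondrial DNA only mt-Nd5, a complex I subunit, was called, at 4091, 2167, 3674 and 3886 CPM in the Cpt2KO libraries, against 5252, 6314, 5561 and 5675 CPM in the Cpt1DKO libraries. mt-Nd5 gave -0.72 ± 0.18 (log2 fold change ± SE, adjusted p = 0.0126).

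Genes of fatty acid synthesis were called in both directions, while the few sterol genes called were lower in Cpt2KO. Of 18 lipogenic genes 2 rose and 3 fell (median -0.01): Acacb and the malic enzyme gene Me1 (0.69) rose, while Elovl6, an elongase of newly made fatty acids (11.8 ± 3.7 CPM in Cpt2KO and 26.9 ± 5.12 CPM in Cpt1DKO (SD, n = 4 each), log2 fold change -1.19 (SE 0.19, adjusted p = 0.000411)), Thrsp (-1.1) and Acss2 fell. That count was 3 without Cpt2KO replicate 2 or Cpt1DKO replicate 3. Of 25 cholesterol genes 2 fell and 0 rose (median -0.11), a share called of 8% beside 14.1% of all genes. The fallers included Ebp, the sterol isomerase (log2 fold change -0.72 (SE 0.13, adjusted p = 0.0012)).

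Stress-response genes that differed were mostly higher in Cpt2KO, with much spread between libraries. Of 26 genes of the ATF4-driven integrated stress response 7 rose and 1 fell (median 0.66), and 6 to 12 were called when each library was left out. After Nupr1 and Psat1, the risers were Mthfd2, a mitochondrial folate enzyme (2.04), Gdf15, Vldlr (1.47), Slc3a2 (1.35) and Atf4 itself (0.53). Gdf15, a stress hormone that reduces feeding, had 54.5, 58.2, 70.5 and 40.5 CPM in the Cpt2KO libraries, against 27, 17.3, 3.19 and 15.6 CPM in the Cpt1DKO libraries, without overlap. Gdf15 gave 1.82 ± 0.44 (log2 fold change ± SE, adjusted p = 0.0119). The faller was Cth, cystathionine γ-lyase of cysteine synthesis, at 117, 75.4, 98.1 and 53 CPM in the Cpt2KO libraries, against 634, 359, 562 and 457 CPM in the Cpt1DKO libraries. Cth gave -2.55 ± 0.4 (log2 fold change ± SE, adjusted p = 0.000574). Fgf21, a hormone raised by fasting and by ATF4 and PPARα, had 52.2, 73.8, 65.6 and 108 CPM in the Cpt2KO libraries, against 37.5, 39, 12.9 and 29.1 CPM in the Cpt1DKO libraries. Its groups did not overlap, yet the difference missed the threshold (log2 fold change 1.34 (SE 0.48, adjusted p = 0.0725)), and each group stood above the Control mean of 3.45 ± 1.92 CPM. DESeq2, limma-voom and the fit of the 8 libraries alone did call Fgf21.

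Genes of the NRF2 antioxidant response gave 7 rises and 1 fall among 28 tested (median 0.48). That count was 2 without Cpt2KO replicate 4, 3 without Cpt2KO replicate 2 or Cpt1DKO replicate 3 or 4, 4 without Cpt1DKO replicate 1, 14 without Cpt2KO replicate 3 and 15 without both female libraries. Cbr3 led, at 21, 16.1, 2.01 and 13.4 CPM in the Cpt2KO libraries, against 1.06, 1.44, 0.479 and 1.41 CPM in the Cpt1DKO libraries, with Cpt2KO replicate 3 nearest to Cpt1DKO. Tkt, transketolase of the pentose phosphate pathway, had 149.8, 157, 153 and 155 CPM in the Cpt2KO libraries, against 80, 80, 94.9 and 86.4 CPM in the Cpt1DKO libraries. Tkt gave 0.85 ± 0.12 (log2 fold change ± SE, adjusted p = 0.000137). Its groups did not overlap. Hmox1, heme oxygenase, had 71.6, 121, 39 and 201 CPM in the Cpt2KO libraries, against 25.7, 62.8, 15.5 and 24.5 CPM in the Cpt1DKO libraries, with overlapping groups (log2 fold change 1.75 (SE 0.46, adjusted p = 0.0193)), and lost its call when Cpt2KO replicate 2 or 4, or Cpt1DKO replicate 1, 3 or 4 was left out (highest adjusted p = 0.0707). Of 22 endoplasmic reticulum chaperones 4 fell and 0 rose (median -0.4), a share called of 18.2% beside 14.1% of all genes. Edem1, which routes misfolded glycoproteins to degradation, gave -0.52 ± 0.12 (log2 fold change ± SE, adjusted p = 0.00535). That count was 1 without Cpt2KO replicate 2 or 4 or Cpt1DKO replicate 1 or 4, 2 without Cpt2KO replicate 1 or Cpt1DKO replicate 3 and 9 without both female libraries. The mitochondrial unfolded protein list had 1 riser (Afg3l2, 0.38) and 1 faller (Clpx, -0.67) of 13. Its share called, 15.4%, was near the 14.1% of all genes, and 0 were called without Cpt2KO replicate 2 or Cpt1DKO replicate 1 or 4. Of 19 p53 targets 1 rose (Tnfrsf10b, 1.42) and 1 fell, a share called of 10.5%, also near that of all genes. The faller, Trp53inp1, had 48.2, 68.3, 125 and 35 CPM in the Cpt2KO libraries, against 491, 418, 107 and 128 CPM in the Cpt1DKO libraries: Cpt1DKO replicates 1 and 2 were high, and replicates 3 and 4 lay inside the Cpt2KO range (log2 fold change -2.05 (SE 0.5, adjusted p = 0.0126)).

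Lysosomal genes were called in both directions. Of 34 tested lysosome and autophagy genes 9 rose and 4 fell (median 0.09). That count was 7 without Cpt2KO replicate 2 and 8 without Cpt1DKO replicate 4. With the 8 libraries alone 4 rose and 2 fell. Lysosomal enzymes made up most of the rises: Lipa, acid lipase, averaged 463 ± 41 CPM in Cpt2KO and 303 ± 21.1 CPM in Cpt1DKO (SD, n = 4 each) (log2 fold change 0.61 (SE 0.12, adjusted p = 0.00163)), Ctsa, cathepsin A, 228 ± 32.5 CPM in Cpt2KO and 160.4 ± 13.4 CPM in Cpt1DKO (log2 fold change 0.5 (SE 0.11, adjusted p = 0.00493)), and Ctsz, cathepsin Z, 384 ± 39.9 CPM in Cpt2KO and 265 ± 24.9 CPM in Cpt1DKO (log2 fold change 0.54 (SE 0.12, adjusted p = 0.00425)). Flcn, a regulator of lysosomal nutrient sensing, had 94, 100.1, 103 and 65.6 CPM in the Cpt2KO libraries, against 54.9, 54.7, 57.2 and 40 CPM in the Cpt1DKO libraries (log2 fold change 0.81 (SE 0.14, adjusted p = 8e-04)), and its groups did not overlap. The fallers Wipi1 (log2 fold change -0.92 (SE 0.2, adjusted p = 0.0047)) and Ulk1 (log2 fold change -0.61 (SE 0.14, adjusted p = 0.00834)) act in autophagosome formation. The other fallers were Lamp2 (-0.46) and the proton pump subunit gene Atp6v0d2 (-3.6), whose call was lost without Cpt2KO replicate 2 or 4 or Cpt1DKO replicate 3 (highest adjusted p = 0.0828).

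Lysosomal promoters are known for the CLEAR element, a palindrome TCACGTGA bound by TFEB and related factors, and the windows of 3 risers are shown because they hold it. The motifs here were chosen after the values were seen. The windows are the 250 bases before each RefSeq start (GRCm38.p6, an older build than that of the counts), in lower case with the motif in capitals; since the motif is its own reverse complement, 1 strand was searched.
Ctsa promoter, chr2:164833523-164833772, plus strand: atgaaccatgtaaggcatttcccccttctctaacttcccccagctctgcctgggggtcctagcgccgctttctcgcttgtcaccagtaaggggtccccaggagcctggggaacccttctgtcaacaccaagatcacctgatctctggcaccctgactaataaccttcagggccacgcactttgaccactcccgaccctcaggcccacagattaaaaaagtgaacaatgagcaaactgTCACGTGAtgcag
Ctsd promoter, chr7:142387828-142388077, minus strand: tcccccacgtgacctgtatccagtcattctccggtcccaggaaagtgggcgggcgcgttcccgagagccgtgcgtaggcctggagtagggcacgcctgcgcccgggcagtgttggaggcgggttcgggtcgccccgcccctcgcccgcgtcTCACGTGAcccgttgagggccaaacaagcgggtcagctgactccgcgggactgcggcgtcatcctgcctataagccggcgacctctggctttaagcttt
Mcoln1 promoter, chr8:3500269-3500518, plus strand: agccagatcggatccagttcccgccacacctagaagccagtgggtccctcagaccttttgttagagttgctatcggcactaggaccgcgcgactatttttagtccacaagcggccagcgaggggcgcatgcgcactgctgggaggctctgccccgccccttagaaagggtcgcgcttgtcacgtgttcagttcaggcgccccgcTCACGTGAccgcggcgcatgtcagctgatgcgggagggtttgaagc
The element lay at bases -13 to -6 from the start in Ctsa, -99 to -92 in Ctsd and -46 to -39 in Mcoln1, and Ctsa has a further window without it. Of the 9 risers 8 had a window and 3 held the motif, of the 4 fallers 3 had a window and 0 held it, and of the 21 members not called 15 had a window and 2 held it. Over all 32851 windows the share was 0.785%. Other motifs were searched too. A direct repeat AGGNCANAGGNCA of the kind PPARα binds, on both strands, was in 0 of the 18 PPARα target risers with a window and in 1 of the 12 such members not called (0.338% of all windows). The amino acid response element TGATGNAA, on both strands, was in 2 of 7 integrated stress response risers and 6 of 16 members not called (3.45% of all windows). A match describes the letters only. Ctsd, cathepsin D, averaged 338 ± 58 CPM in Cpt2KO and 252 ± 21 CPM in Cpt1DKO (SD, n = 4 each) (log2 fold change 0.43 (SE 0.12, adjusted p = 0.0256)) and lost its call when Cpt2KO replicate 2, or Cpt1DKO replicate 2, 3 or 4 was left out (highest adjusted p = 0.11). Mcoln1, a lysosomal calcium channel, averaged 58.4 ± 5.88 CPM in Cpt2KO and 44.4 ± 3.33 CPM in Cpt1DKO (log2 fold change 0.39 (SE 0.1, adjusted p = 0.0117)).

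Genes typical of lipid-associated macrophages that were called were mostly higher in Cpt2KO. Of 18 tested 7 rose and 1 fell (median 0.36). That count was 5 without Cpt2KO replicate 2. Besides Gpnmb, Plin2 and Ctsd they included Cd68, a lysosomal glycoprotein of macrophages, at 35, 57, 25.3 and 44.1 CPM in the Cpt2KO libraries, against 7.02, 11, 8.3 and 6.93 CPM in the Cpt1DKO libraries (log2 fold change 2.28 (SE 0.26, adjusted p = 3.64e-05)), and Lgals3, galectin-3, at 25.9, 25.5, 14 and 21 CPM in the Cpt2KO libraries, against 3.51, 5.3, 4.87 and 2.87 CPM in the Cpt1DKO libraries. Lgals3 gave 2.39 ± 0.28 (log2 fold change ± SE, adjusted p = 3.4e-05). Neither gene overlapped between the groups. Cd63, a tetraspanin of late endosomes that many cell types make, averaged 48.6 ± 5 CPM in Cpt2KO and 7.35 ± 3.99 CPM in Cpt1DKO (SD, n = 4 each) (log2 fold change 2.72 (SE 0.35, adjusted p = 0.000118)), and Itgax, a dendritic cell and macrophage integrin, also rose (2.07). The faller was Atp6v0d2 (-3.6), a proton pump subunit also counted among lysosomal genes, and the 10 members not called ran from -0.63 to 0.9 on the log2 scale. The summed level of the list was 3978 to 6081 CPM in Cpt2KO and 1856 to 2585 CPM in Cpt1DKO, against 1154 to 1304 CPM in Control, most of it Plin2, which hepatocytes also make. In bulk liver, more cells of a type and more RNA per cell cannot be told apart.

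Few markers of other liver cells were called, 0 to 10% of each list beside 14.1% of all genes. Median log2 fold changes were 0.2 for Kupffer cell markers (12 of 15 above 0) and 0.58 for lymphocyte markers (10 of 11). They were -0.13 for monocyte and chemokine genes (5 of 15) and -0.1 for stellate cell and matrix genes (10 of 27). Endothelial markers had a median of -0.42 (1 of 16 above 0) and bile duct markers -0.89 (0 of 10). With the 8 libraries alone 4 endothelial markers were called. Of 15 Kupffer cell markers 1 rose, Cd68, and 0 fell, and their summed level was 509 to 879 CPM in Cpt2KO and 491 to 621 CPM in Cpt1DKO, against 525 to 870.1 CPM in Control, so the groups overlapped. None of 15 tested monocyte and chemokine genes was called (summed level 29.7 to 79.4 CPM in Cpt2KO and 48.8 to 62.1 CPM in Cpt1DKO), nor any of 11 lymphocyte, 4 neutrophil, 5 erythroid or 2 pancreas and adipose genes. Their part in the rises above was not tested. The summed lymphocyte level was 9.58 to 22.3 CPM in Cpt2KO and 7.38 to 13.2 CPM in Cpt1DKO, the neutrophil level 2.88 to 7.05 CPM in Cpt2KO and 3.64 to 7.58 CPM in Cpt1DKO and the erythroid level 163 to 547 CPM in Cpt2KO and 184 to 325 CPM in Cpt1DKO. The pancreas and adipose level was 15.5 to 28.7 CPM in Cpt2KO and 10.8 to 102 CPM in Cpt1DKO, against 301 to 373 CPM in Control. Markers at 0 counts in all Cpt2KO libraries included S100a4, Cd8b1, Prss2, Ins2, Lep and Retn, and in all Cpt1DKO libraries Ly6g, Mpo, Cpa1, Prss2, Pnlip, Lep and Retn. No listed Kupffer, lipid-associated macrophage, endothelial or stellate cell gene was at 0 in either group. Of 16 endothelial markers 1 fell, Pecam1, the platelet-endothelial adhesion molecule (log2 fold change -0.75 (SE 0.23, adjusted p = 0.0371)). Pecam1 lost its call when Cpt2KO replicate 1, 2 or 4, or Cpt1DKO replicate 1 or 2 was left out (highest adjusted p = 0.12), and the summed endothelial level was 598 to 773 CPM in Cpt2KO and 773 to 984 CPM in Cpt1DKO, against 459 to 997 CPM in Control. Of 27 stellate cell and matrix genes 1 fell, Col1a1, a collagen chain (log2 fold change -1 (SE 0.28, adjusted p = 0.0227)), which lost its call when Cpt2KO replicate 2, or Cpt1DKO replicate 2 or 4 was left out (highest adjusted p = 0.09) (summed level 566 to 765 CPM in Cpt2KO and 653 to 704 CPM in Cpt1DKO, against 432 to 547 CPM in Control). Of 10 bile duct markers 1 fell, the transcription factor gene Sox9, at 2.02, 0.693, 1.3 and 1.27 CPM in the Cpt2KO libraries, against 4.97, 3.66, 2.39 and 5.18 CPM in the Cpt1DKO libraries (log2 fold change -1.63 (SE 0.33, adjusted p = 0.0026)), and the summed level was 23.7 to 30.3 CPM in Cpt2KO and 38.3 to 57.9 CPM in Cpt1DKO, against 47.9 to 62.3 CPM in Control.

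Of the listed interferon-stimulated and antigen presentation genes, which do not include the riser H2-Q1, those called were lower in Cpt2KO, 9 of 31 against 0 higher (median -0.51). That count was 3 without Cpt2KO replicate 2, 4 without Cpt1DKO replicate 3, 5 without Cpt2KO replicate 4 or Cpt1DKO replicate 4 and 14 without Cpt1DKO replicate 2. Mx2, an antiviral GTPase, averaged 1.4 ± 0.752 CPM in Cpt2KO and 3.79 ± 0.785 CPM in Cpt1DKO (SD, n = 4 each) (log2 fold change -1.45 (SE 0.39, adjusted p = 0.0183)) and lost its call when Cpt2KO replicate 2, or Cpt1DKO replicate 3 was left out (highest adjusted p = 0.0726). Psmb9, an immunoproteasome subunit, gave -1.03 (adjusted p = 0.00147) and B2m, the light chain of class I molecules, -0.52 (adjusted p = 0.0084).

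Cytoskeletal genes rose together where they differed, 9 of 26 higher and 0 lower (median 0.57), with 8 to 10 called when each library was left out. Tubb2a, a β-tubulin with the close copy Tubb2b, had 405, 886, 588 and 807 CPM in the Cpt2KO libraries, against 258, 268, 59.1 and 174 CPM in the Cpt1DKO libraries, and every Cpt2KO library lay above every Cpt1DKO one (log2 fold change 1.82 (SE 0.4, adjusted p = 0.00678)). Actg1, cytoplasmic γ-actin, had 349, 441, 403 and 463 CPM in the Cpt2KO libraries, against 181, 185, 116 and 137 CPM in the Cpt1DKO libraries, again with no overlap. Actg1 gave 1.42 ± 0.14 (log2 fold change ± SE, adjusted p = 2.81e-06). Anxa2, a membrane-binding annexin, averaged 27.9 ± 5.48 CPM in Cpt2KO and 9.51 ± 2.7 CPM in Cpt1DKO (SD, n = 4 each) (log2 fold change 1.55 (SE 0.26, adjusted p = 0.000689)). Of 23 cell cycle genes 3 rose and 0 fell, a share of 13% that is near the 14.1% of all genes (median 0.36). E2f8, a repressor of the E2F family with a role in hepatocyte polyploidy, had 29.4, 24, 38.2 and 26.4 CPM in the Cpt2KO libraries, against 8.01, 9.87, 10.6 and 13.5 CPM in the Cpt1DKO libraries (log2 fold change 1.49 (SE 0.28, adjusted p = 0.0017)), and Mcm2 (0.97) and Rrm1 (0.61), both of DNA replication, were the others. That count was 1 without Cpt2KO replicate 4 or Cpt1DKO replicate 4.

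Amino acid breakdown had the highest share of falls of any list tested. Of 36 tested genes 21 fell and 0 rose (58.3% called, median -0.8), beside 6.71% lower among all genes, and 16 to 22 were called when each library was left out. After Bhmt came 3 enzymes of tryptophan and histidine breakdown. Acmsd, which steers tryptophan carbon away from NAD synthesis, had 3.1, 2.13, 1.9 and 2.36 CPM in the Cpt2KO libraries, against 29.2, 26.5, 5.91 and 7.83 CPM in the Cpt1DKO libraries, with no overlap although Cpt1DKO replicates 3 and 4 were well below replicates 1 and 2 (log2 fold change -2.88 (SE 0.51, adjusted p = 0.0015)). Ido2, an indoleamine dioxygenase, averaged 5.27 ± 3.98 CPM in Cpt2KO and 36.1 ± 11.7 CPM in Cpt1DKO (SD, n = 4 each) (log2 fold change -2.8 (SE 0.49, adjusted p = 0.00145)). Hal, histidine ammonia-lyase, had 127, 63.3, 104 and 39.4 CPM in the Cpt2KO libraries, against 476, 264, 580.3 and 570.2 CPM in the Cpt1DKO libraries. Hal gave -2.5 ± 0.58 (log2 fold change ± SE, adjusted p = 0.0101). The list also held falls of Haao (-2.07), Gldc (-1.62), Tat (-1.47), Kynu (-1.32), Gnmt (-1.23) and Cbs (-1.15), enzymes for tryptophan, glycine, tyrosine and sulfur amino acids. Mat1a, which makes S-adenosylmethionine and was among the most abundant genes called, averaged 7178 ± 1612 CPM in Cpt2KO and 12391 ± 1563 CPM in Cpt1DKO (SD, n = 4 each) (log2 fold change -0.79 (SE 0.24, adjusted p = 0.0294)) and lost its call when Cpt2KO replicate 1, 2 or 4, or Cpt1DKO replicate 1 or 2 was left out (highest adjusted p = 0.0838).

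Urea cycle and nitrogen disposal genes fell in 6 of 15 cases and rose in 0 (median -0.76). That count was 3 without Cpt2KO replicate 1, 2 or 4 or Cpt1DKO replicate 3 and 10 without both female libraries. Glul, glutamine synthetase of the hepatocytes next to the central vein, had 368, 174, 582 and 176 CPM in the Cpt2KO libraries, against 1076, 1062, 1212 and 1211 CPM in the Cpt1DKO libraries, so that its highest Cpt2KO library was well under every Cpt1DKO library (log2 fold change -1.81 (SE 0.28, adjusted p = 0.000332)). Otc, ornithine transcarbamylase, averaged 69.2 ± 21.1 CPM in Cpt2KO and 155 ± 56.1 CPM in Cpt1DKO (SD, n = 4 each) (log2 fold change -1.16 (SE 0.32, adjusted p = 0.0236)) and lost its call when Cpt2KO replicate 2, or Cpt1DKO replicate 3 or 4 was left out (highest adjusted p = 0.0803). Ass1, argininosuccinate synthase, averaged 1565 ± 215 CPM in Cpt2KO and 2695 ± 256 CPM in Cpt1DKO (SD, n = 4 each) (log2 fold change -0.78 (SE 0.23, adjusted p = 0.025)) and lost its call when Cpt2KO replicate 1 or 4, or Cpt1DKO replicate 1 was left out (highest adjusted p = 0.0685). Cps1, which starts the cycle, was not called (-0.48, adjusted p = 0.186).

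Bile acid genes fell in 10 of 23 cases and rose in 0 (median -0.72), with 7 to 10 called when each library was left out. Akr1d1, the reductase that shapes the steroid ring of bile acids, had 10.6, 4.96, 28.5 and 4.9 CPM in the Cpt2KO libraries, against 54, 45.2, 156 and 91.5 CPM in the Cpt1DKO libraries, and Cpt1DKO replicate 3 was the highest library (log2 fold change -2.82 (SE 0.57, adjusted p = 0.00408)). Abcb11 (chromosome 2, 69068626 to 69172960, minus strand), the bile salt export pump, had 52.4, 11.5, 32.5 and 16.5 CPM in the Cpt2KO libraries, against 163, 97.3, 157 and 177 CPM in the Cpt1DKO libraries, with no overlap. Abcb11 gave -2.4 ± 0.37 (log2 fold change ± SE, adjusted p = 0.000496). Nr0b2, the receptor SHP that bile acids induce through FXR and that represses Cyp7a1, had 3.98, 0.426, 0.217 and 0.115 CPM in the Cpt2KO libraries, against 6.89, 3.2, 10.4 and 9.52 CPM in the Cpt1DKO libraries. It fell together with Cyp7a1 (log2 fold change -2.74 (SE 0.85, adjusted p = 0.0418)), but the groups overlapped through Cpt2KO replicate 1, and the call was lost when Cpt2KO replicate 2, 3 or 4, or Cpt1DKO replicate 1, 3 or 4 was left out (highest adjusted p = 0.12). Slc10a1, the bile salt importer, was also lower (-1.38, adjusted p = 0.00398). The FXR gene Nr1h4 was not called (-0.19, adjusted p = 0.457).

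Abcb11 is a textbook FXR target, and its promoter is shown because it was 1 of 28 among 32851 windows (0.0852%) to hold an inverted repeat AGGNCANTGNCCT, the type of element FXR is known to bind, searched on 1 strand since it is its own reverse complement.
Abcb11 promoter, chr2:69342617-69342866, minus strand: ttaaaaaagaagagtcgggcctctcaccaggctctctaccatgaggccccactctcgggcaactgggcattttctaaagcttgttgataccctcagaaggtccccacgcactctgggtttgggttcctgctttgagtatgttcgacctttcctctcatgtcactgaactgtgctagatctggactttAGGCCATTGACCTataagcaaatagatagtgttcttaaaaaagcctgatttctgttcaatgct
The capitals mark the repeat, at bases -63 to -51 from the RefSeq start (GRCm38.p6). Of the 10 bile acid genes that fell 7 had a window and 1 held the repeat, and of the 13 not called 10 had a window and 1 held it, Slco1b2.

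**Figure D4:**
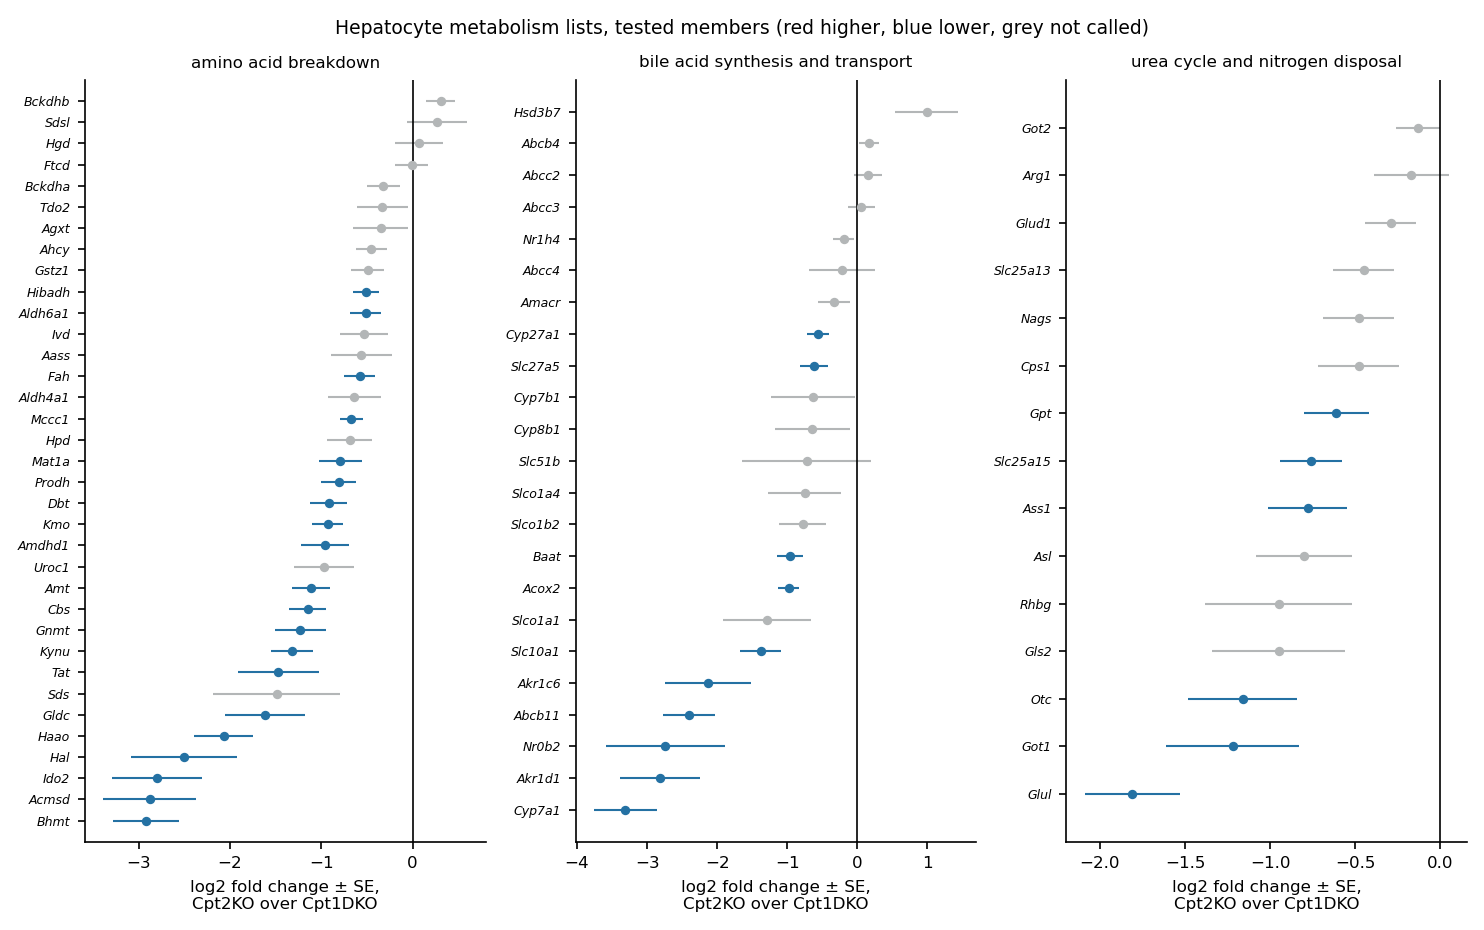
Log2 fold change with its SE, Cpt2KO over Cpt1DKO, for tested members of the amino acid breakdown, bile acid and urea cycle lists, coloured by call. No member is red, and the falls extend to -3.31 (Cyp7a1).

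Drug-metabolising cytochromes that differed were largely lower in Cpt2KO. Of 33 tested members of the Cyp1, Cyp2 and Cyp3 families 12 fell and 1 rose, the riser being Cyp2a4 (median -0.6). That count was 7 without Cpt2KO replicate 2 and 8 without Cpt1DKO replicate 1 or 3. Cyp2c54 had 22.1, 7.83, 30.9 and 11.6 CPM in the Cpt2KO libraries, against 77.2, 60.6, 214 and 102 CPM in the Cpt1DKO libraries (log2 fold change -2.65 (SE 0.48, adjusted p = 0.00179)), and Cyp2c37, a close relative, 32.5, 32.8, 102 and 34.8 CPM in the Cpt2KO libraries, against 231, 212, 257 and 246 CPM in the Cpt1DKO libraries (log2 fold change -2.23 (SE 0.36, adjusted p = 0.00067)); reads of this subfamily could be split between copies. Cyp2f2, a periportal enzyme, averaged 83.7 ± 57.9 CPM in Cpt2KO and 383 ± 115 CPM in Cpt1DKO (SD, n = 4 each) (log2 fold change -2.19 (SE 0.41, adjusted p = 0.00206)). Cyp2b10, the classic target of the receptor CAR, had 1.08, 1.81, 4.94 and 1.67 CPM in the Cpt2KO libraries, against 59, 62.7, 2.95 and 12.3 CPM in the Cpt1DKO libraries. Cpt1DKO replicates 1 and 2 were high and replicate 3 lay inside the Cpt2KO range, and the call (log2 fold change -3.83 (SE 1.23, adjusted p = 0.0494)) was lost when Cpt2KO replicate 1, 2, 3 or 4, or Cpt1DKO replicate 1, 2 or 4 was left out (highest adjusted p = 0.128).

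Secreted proteins of hepatocytes fell in part. Of 34 tested 9 fell and 1 rose (median -0.37). Ahsg, fetuin-A, had 3019, 3793, 3123 and 2446 CPM in the Cpt2KO libraries, against 8805, 8131, 6653 and 6432 CPM in the Cpt1DKO libraries, with no overlap. Ahsg gave -1.28 ± 0.16 (log2 fold change ± SE, adjusted p = 3.64e-05). Plg, plasminogen, averaged 623 ± 226 CPM in Cpt2KO and 1563 ± 335 CPM in Cpt1DKO (SD, n = 4 each) (log2 fold change -1.33 (SE 0.25, adjusted p = 0.00155)), Cp, the copper carrier ceruloplasmin, 473 ± 178 CPM in Cpt2KO and 1039 ± 140.2 CPM in Cpt1DKO (log2 fold change -1.14 (SE 0.23, adjusted p = 0.00242)), and Trf, transferrin, 4101 ± 213 CPM in Cpt2KO and 7852 ± 1094 CPM in Cpt1DKO (log2 fold change -0.94 (SE 0.18, adjusted p = 0.0015)). Albumin missed the threshold (log2 fold change -0.57 (SE 0.24, adjusted p = 0.111)): its libraries held 23418, 38087, 46518 and 24664 CPM in the Cpt2KO libraries, against 52124, 47211, 48475 and 49725 CPM in the Cpt1DKO libraries, with Cpt2KO replicate 3 close to the Cpt1DKO values. Without that library albumin was called lower (-0.78, adjusted p = 0.0365), as it was with sex as a term. Apoa4, an apolipoprotein of triglyceride-rich particles, was the riser, at 12292 ± 4551 CPM in Cpt2KO and 5851 ± 1428 CPM in Cpt1DKO (log2 fold change 1.07 (SE 0.32, adjusted p = 0.0321)), and lost its call when Cpt2KO replicate 2 or 4, or Cpt1DKO replicate 1, 3 or 4 was left out (highest adjusted p = 0.128).

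Acute phase and complement genes gave 13 falls and 3 rises of 33 (median -0.42), with 11 to 15 called when each library was left out. The fibrinogen chain gene Fgg had 382, 359.8, 351 and 162 CPM in the Cpt2KO libraries, against 1357, 1105, 1599 and 1262 CPM in the Cpt1DKO libraries (log2 fold change -2.09 (SE 0.32, adjusted p = 0.000308)), and Fga averaged 519 ± 179 CPM in Cpt2KO and 2070.4 ± 274 CPM in Cpt1DKO (SD, n = 4 each) (log2 fold change -2 (SE 0.3, adjusted p = 0.000241)). Neither overlapped between the groups. Saa4, the constitutive serum amyloid A, had 16, 4.8, 6.84 and 5.82 CPM in the Cpt2KO libraries, against 42.1, 31.4, 83.5 and 84 CPM in the Cpt1DKO libraries. Saa4 gave -2.86 ± 0.49 (log2 fold change ± SE, adjusted p = 0.00131). Serpina3m, a protease inhibitor of a family with close copies, averaged 62 ± 53.3 CPM in Cpt2KO and 317 ± 39.7 CPM in Cpt1DKO (SD, n = 4 each) (log2 fold change -2.35 (SE 0.5, adjusted p = 0.00606)), and its abundant relative Serpina3k 4289 ± 967 CPM in Cpt2KO and 8424 ± 841 CPM in Cpt1DKO (log2 fold change -0.97 (SE 0.24, adjusted p = 0.0115)). The inducible amyloids ran the other way on 1 library: Saa1 had 355, 7.73, 15 and 20.1 CPM in the Cpt2KO libraries, against 7.02, 6.54, 10.5 and 8.57 CPM in the Cpt1DKO libraries (log2 fold change 3.6 (SE 1.14, adjusted p = 0.0471)), and Saa2, a near-identical copy, had 129, 4, 4.02 and 4.15 CPM in the Cpt2KO libraries, against 1.19, 1.96, 2.63 and 4.34 CPM in the Cpt1DKO libraries. Saa2 gave 3.77 ± 1.16 (log2 fold change ± SE, adjusted p = 0.0418). Saa1 lost its call when Cpt2KO replicate 1, or Cpt1DKO replicate 1, 2, 3 or 4 was left out (highest adjusted p = 0.515), and Saa2 when Cpt2KO replicate 1, or Cpt1DKO replicate 1, 2, 3 or 4 was left out (highest adjusted p = 0.562). Orm2, which rose, had 26.9, 32, 19.9 and 94.9 CPM in the Cpt2KO libraries, against 4.44, 8.7, 2.95 and 4.11 CPM in the Cpt1DKO libraries, with no overlap.

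**Figure D5:**
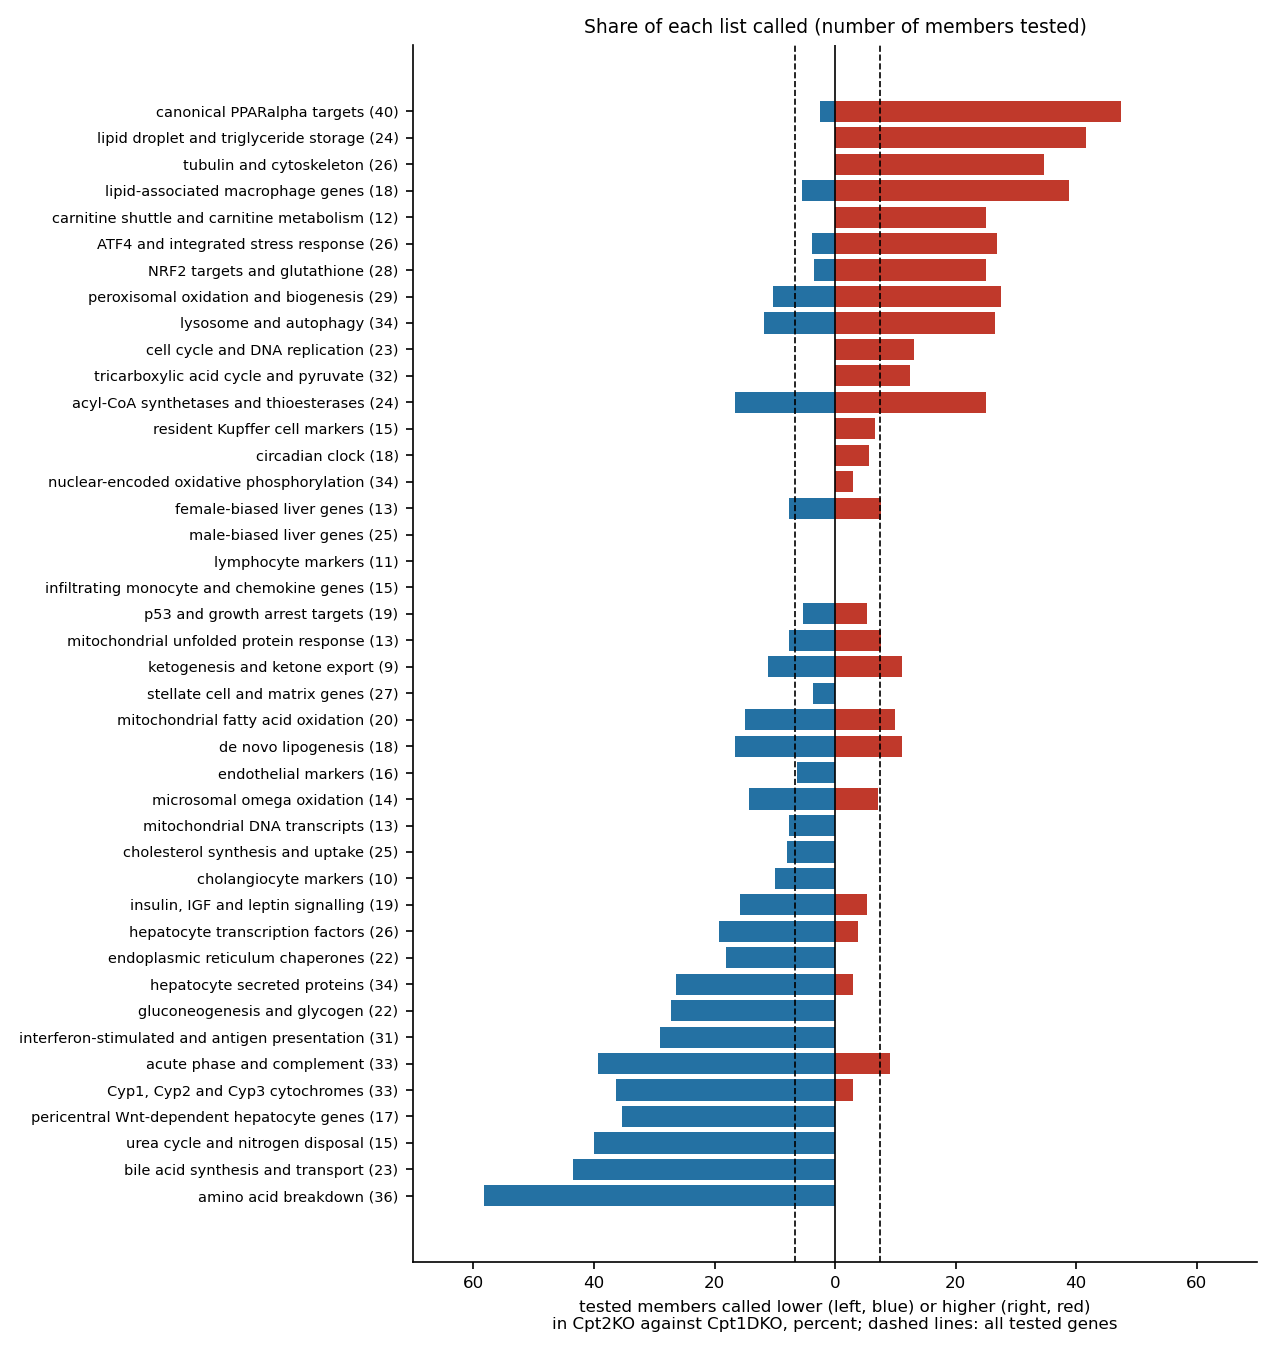
Percent of the tested members of each list with at least 9 tested members that were called higher (right) or lower (left) in Cpt2KO against Cpt1DKO, with the share over all tested genes as dashed lines (7.41% higher, 6.71% lower). PPARα targets stand at the top with 19 of 40 higher, and amino acid breakdown at the bottom with 21 of 36 lower.

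Glucose and glycogen genes fell in 6 of 22 cases and rose in 0 (median -0.65). That count was 12 without Cpt2KO replicate 3 and 14 without both female libraries. Slc37a4, the transporter that brings glucose 6-phosphate to glucose 6-phosphatase, had 154, 173, 191 and 136 CPM in the Cpt2KO libraries, against 446, 399, 399.6 and 369 CPM in the Cpt1DKO libraries. Slc37a4 gave -1.3 ± 0.18 (log2 fold change ± SE, adjusted p = 0.000115). Ppp1r3b, which targets a phosphatase to glycogen, averaged 16 ± 6.61 CPM in Cpt2KO and 63.9 ± 13.5 CPM in Cpt1DKO (SD, n = 4 each) (log2 fold change -2 (SE 0.32, adjusted p = 0.000595)). Pfkfb1, the enzyme that sets fructose 2,6-bisphosphate, averaged 17.3 ± 5.71 CPM in Cpt2KO and 56.9 ± 13.4 CPM in Cpt1DKO (log2 fold change -1.72 (SE 0.25, adjusted p = 0.000241)). None of these 3 overlapped between the groups. The list's other falls were Ppp1r3c (-2.63), Slc2a2 (-0.96) and Pygl (-0.81), whereas Pck1 (-0.83, adjusted p = 0.056) and G6pc (-1.16, adjusted p = 0.0915), the enzymes at the ends of gluconeogenesis, were not called.

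Pericentral hepatocyte genes that depend on Wnt signals fell in 6 of 17 cases and rose in 0 (median -0.7), with 4 to 7 called when each library was left out. Besides Glul, Slc1a2, a glutamate importer of the same cells, had 80.7, 37.4, 180.1 and 43 CPM in the Cpt2KO libraries, against 337, 352, 324 and 285 CPM in the Cpt1DKO libraries. Slc1a2 gave -1.93 ± 0.37 (log2 fold change ± SE, adjusted p = 0.00232). Its highest Cpt2KO value, in replicate 3, was below every Cpt1DKO value. Oat (-1.09), Slc13a3 (-1.19), Lgr5 (-1.88) and Cyp27a1 (-0.56) were the others.

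Transcription factors and receptors of hepatocytes changed at a few genes. The share called was 23.1% of the factors, 21.1% of the signalling genes and 5.56% of the clock genes below, beside 14.1% of all genes. Of 26 factors 1 rose and 5 fell (median -0.18). That count was 3 without Cpt2KO replicate 2 or 4 or Cpt1DKO replicate 3 or 4 and 10 without both female libraries. Pparg, the relative of PPARα that drives fat storage, had 22.9, 22.7, 21.3 and 26.2 CPM in the Cpt2KO libraries, against 10.3, 8.43, 13.6 and 6.42 CPM in the Cpt1DKO libraries, without overlap. Pparg gave 1.27 ± 0.18 (log2 fold change ± SE, adjusted p = 0.000133). Klf15, a factor for amino acid breakdown and gluconeogenesis in fasting, averaged 116 ± 45.7 CPM in Cpt2KO and 264 ± 35.7 CPM in Cpt1DKO (SD, n = 4 each) (log2 fold change -1.19 (SE 0.24, adjusted p = 0.00325)), and Nr5a2, LRH-1, 42.6 ± 8.24 CPM in Cpt2KO and 65.2 ± 9.65 CPM in Cpt1DKO (log2 fold change -0.61 (SE 0.15, adjusted p = 0.00977)). Of 19 genes of insulin, growth factor and leptin signalling 1 rose and 3 fell (median -0.25). Egfr, the epidermal growth factor receptor, had 239.6, 84.3, 102 and 114 CPM in the Cpt2KO libraries, against 491, 491, 299.6 and 315 CPM in the Cpt1DKO libraries (log2 fold change -1.56 (SE 0.35, adjusted p = 0.00705)), Igfbp4, a binding protein of insulin-like growth factors, averaged 1096 ± 132 CPM in Cpt2KO and 2086 ± 279.9 CPM in Cpt1DKO (log2 fold change -0.93 (SE 0.14, adjusted p = 3e-04)), and Insr, the insulin receptor, 154 ± 38.1 CPM in Cpt2KO and 231 ± 24.9 CPM in Cpt1DKO (log2 fold change -0.59 (SE 0.15, adjusted p = 0.0118)). Of 18 clock genes 1 rose, Bhlhe40, a repressor in the clock loop (93.7 ± 28.9 CPM in Cpt2KO and 42.6 ± 12.6 CPM in Cpt1DKO (SD, n = 4 each), log2 fold change 1.14 (SE 0.27, adjusted p = 0.00906)), and 0 fell.

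Sex-biased liver genes bore on the female library. Of 25 male-biased genes 0 rose and 0 fell (median -0.42), and of 13 female-biased genes 1 rose, Cyp2a4, and 1 fell, Atp6v0d2 (median 0.33). Without both female libraries 1 male-biased gene rose and 0 fell, and 1 female-biased gene rose and 4 fell. With each library left out in turn, the female-biased median ran from -1.01 to 0.89 and the male-biased median from -1.01 to -0.03. Mup7, a major urinary protein of male liver from a family of close copies, had 3755, 709, 8.36 and 4612 CPM in the Cpt2KO libraries, against 2978, 3870.0, 1604 and 4338 CPM in the Cpt1DKO libraries, lowest in the library with the female pattern (log2 fold change -0.49 (SE 1.37, adjusted p = 0.851)).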

How the data were processed

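The authors deposited gene-level read counts and FPKM values for 20 mouse liver libraries and tables of their own log2 fold changes with p-values. Reads were aligned to GRCm39 (mm39) with HISAT2, per the submitters' processing notes; no source used here gives the counter, strand setting or library kit, so reads of a gene and an antisense partner cannot be told apart. The deposited counts were tested as they stood. The deposited FPKM values, scaled by gene length and library size by the authors, entered no test and are not printed. The authors' deposited log2 fold changes and p-values served as a side comparison.

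All 20 libraries were fitted by genotype with edgeR 4.0.16 (R 4.3.3; limma 3.58.1): trimmed mean of M-values scaling, the default filter on low counts (minimum 10), robust quasi-likelihood, contrast Cpt2KO minus Cpt1DKO, Benjamini-Hochberg adjustment over 15669 of 56748 genes, threshold 0.05. SEs come from the F statistic. The biological coefficient of variation was 0.233. With 4 libraries a group, simulated counts on 15388 genes returned 84 of 100 genes changed 2-fold and 97 of 100 changed 4-fold. The changed genes were drawn only from those with higher mean counts, and no sex difference between libraries was simulated. These rates therefore do not describe scarce genes.

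Named genes were the targeted genes, the 15 largest called rises and falls (protein-coding, mean of 5 CPM or more, groups apart), up to 4 called members per list and direction, the most abundant called genes, and a few fixed genes. Members and lists were chosen with earlier results of these data known. Members given only as a log2 fold change, and Ctsd and Mcoln1, were named after their values were seen. Alternatives were other scalings, no filter, DESeq2 1.42.0 with its own fit and test, limma-voom, sex as a term, a replicate block, the 8 libraries alone and each library left out. Promoters are from RefSeq. Some list members are not reported here and are left out of the plots by member, while list counts include them.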

Additional observations from a re-analysis of the deposited data

Results flagged for a closer look

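In 14 of 236 combinations of gene and group, 1 of the 4 libraries lay so far from the other 3 that its gap to the nearest, divided by the group's range, exceeded Dixon's 95% critical value for 4 samples. About 5% of groups pass this by chance. Flags of Xist, whose levels are described above, were left out of the 14. Cpt2KO replicate 1 was high for Saa1 (355 CPM, next 20.1), Saa2 (129 CPM, next 4.15), Nr0b2 (3.98 CPM, next 0.426) and Car5a (5.4 CPM, next 1.33). Cpt2KO replicate 2 was high for Ctsa (276 CPM, next 216) and Trf (4417 CPM, next 4036). Cpt2KO replicate 3 was high for Cyp2c37 (102 CPM, next 34.8). Cpt2KO replicate 4 was high for Orm2 (94.9 CPM, next 32) and low for Fgg (162 CPM, next 351) and Elovl6 (6.29 CPM, next 13). Cpt1DKO replicate 2 was low for Cpt2 (147 CPM, next 284) and high for Anxa2 (13.5 CPM, next 8.48) and Myc (18.9 CPM, next 11.4). Cpt1DKO replicate 4 was low for Flcn (40 CPM, next 54.7).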

How the results depend on the processing

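The count of 2212 called genes was 2242 with relative log expression factors, 2233 with upper-quartile factors, 1646 without a filter, 2755 with DESeq2, 2047 with limma-voom and 2266 with sex as a term. Fitting only the 8 libraries gave 1344 (687 higher, 657 lower), and leaving out single libraries gave 1192 to 2517 in all (641 to 1364 higher, 551 to 1153 lower). The labels do not say whether replicate numbers pair the libraries. Correlations of deviations from the group mean were -0.11 to 0.1 for the same number and -0.14 to 0.14 for different numbers. With 4 libraries a group, such values cannot decide whether a pairing existed. A replicate block over 20 libraries gave 2081 and, over the 8 libraries only, 1354 (663 higher, 691 lower). Without both female libraries, an alternative chosen after seeing the data, 3227 genes were called; PPARα targets were then 19 higher and 1 lower, lipid droplet genes 10 higher and 1 lower, macrophage genes 7 higher and 1 lower, bile acid genes 0 higher and 10 lower and amino acid breakdown 0 higher and 24 lower. Of 118 genes with full results 113 were called, and 97 of these stayed called with each library left out; 16 did not. None reversed under any setting. Calls ended for Apoa4, Cyp2a4, Cyp2b10, Keg1, Nr0b2, Otc, Pecam1, Saa1 and Saa2 without a filter, for Apoa4, Cyp2a4, Cyp2b10, Saa1 and Saa2 with limma-voom, for Ass1, Mat1a and Otc with sex as a term, for Nr0b2 without both female libraries, and for 3 genes with the block over 20 libraries and 20 with it over 8. Insr, Plin4, Slc1a2, Tubb2a and Akr1d1 were among 18 not called with the 8 libraries alone. The causes were not tested. Fabp3, Ucp3 and Cpt1b rested on 15, 36 and 53 Cpt1DKO reads in all.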

Other observations

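Outside the lists, a handful of genes chosen after their values were seen set Cpt1DKO apart while Cpt2KO stayed near Control; both comparisons share the Control libraries. Eif4ebp3, a repressor of translation initiation of the 4E-BP family, had 10.6, 8.21, 8.2 and 11.9 CPM in the Cpt2KO libraries, against 43.6, 44.7, 17.2 and 19.2 CPM in the Cpt1DKO libraries (log2 fold change -1.68 (SE 0.37, adjusted p = 0.00574)); against Control the log2 difference was 0.22 (adjusted p = 0.702) in Cpt2KO and 1.9 (adjusted p = 0.00603) in Cpt1DKO. Slc25a22, a mitochondrial glutamate carrier, had 483, 556, 645 and 342 CPM in the Cpt2KO libraries, against 1254, 1013, 643 and 742 CPM in the Cpt1DKO libraries (log2 fold change -0.85 (SE 0.22, adjusted p = 0.0132)), overlapping at 1 library of each group, and lost its call when Cpt1DKO replicate 1 was left out (highest adjusted p = 0.0638); against Control the log2 difference was 0 (adjusted p = 0.996) in Cpt2KO and 0.85 (adjusted p = 0.0252) in Cpt1DKO. Actn1, an actin cross-linker, had 48, 52.2, 38.7 and 36.3 CPM in the Cpt2KO libraries, against 19, 18.8, 30.8 and 22.8 CPM in the Cpt1DKO libraries (log2 fold change 0.94 (SE 0.15, adjusted p = 0.000429)); against Control the log2 difference was 0.21 (adjusted p = 0.314) in Cpt2KO and -0.73 (adjusted p = 0.00757) in Cpt1DKO. Bhlhe40 differed from Control by -0.14 (adjusted p = 0.738) in Cpt2KO and by -1.28 (adjusted p = 0.00952) in Cpt1DKO.

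Other genes outside the lists, chosen the same way, were among the larger differences. The long noncoding RNA 4931408D14Rik (chromosome 19, 37235740 to 37241516, minus strand, GRCm39) had 206, 264, 238 and 219 CPM in the Cpt2KO libraries, against 23.8, 24.8, 46.8 and 36.2 CPM in the Cpt1DKO libraries, with no overlap (log2 fold change 2.82 (SE 0.21, adjusted p = 2.98e-08)) and a Control mean of 24.7 ± 4.62 CPM. Maoa, monoamine oxidase A, averaged 52.8 ± 24.7 CPM in Cpt2KO and 8.64 ± 2.04 CPM in Cpt1DKO (SD, n = 4 each) (log2 fold change 2.61 (SE 0.37, adjusted p = 0.000254)), and Myc, the growth-promoting transcription factor, 36 ± 11.9 CPM in Cpt2KO and 12.8 ± 4.11 CPM in Cpt1DKO (log2 fold change 1.49 (SE 0.3, adjusted p = 0.00284)). Serpinf2, the plasmin inhibitor of plasma, averaged 145 ± 31.5 CPM in Cpt2KO and 633 ± 121 CPM in Cpt1DKO (log2 fold change -2.12 (SE 0.19, adjusted p = 5.91e-07)), and Sult1d1, a sulfotransferase, averaged 51.6 ± 13.8 CPM in Cpt2KO and 231 ± 138 CPM in Cpt1DKO (log2 fold change -2.17 (SE 0.4, adjusted p = 0.0019)).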
